A study of Mus musculus with 20 samples.

Results

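The Zfp genes of mouse carry the symbol Zfp and a number, a name given to proteins in which a zinc finger was recognised. Members were selected on their measured level: the symbol had to start with Zfp and a digit, and the mean of both total RNA libraries of control cells had to reach 5 CPM (the count of a gene scaled by the total of its library). Zfp36, Zfp36l1 and Zfp36l2, which bind RNA through another kind of zinc finger, and names ending in -ps (pseudogenes) were left out. Of 331 Zfp symbols in the table of 14924 genes, 4 were left out by name, 68 of the other 327 were under 5 CPM, and 259 were members. The members just inside the limit were Zfp111 at 5.14 CPM and Zfp937 at 5.15 CPM, and those just outside were Zfp536 at 4.77 CPM and Zfp780b at 4.71 CPM. All 259 members passed the filter on low counts, as the choice by level made likely.

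Most Zfp genes encode C2H2 zinc finger proteins. In a C2H2 finger, a pair of cysteines and a pair of histidines hold a zinc ion, and the fingers of an array read DNA bases side by side. Many of these proteins start with a KRAB domain, which recruits the corepressor Trim28 (KAP1) and, through it, the histone methyltransferase Setdb1 and the HP1 proteins, and KRAB zinc finger proteins are best known for silencing retroelements and for keeping imprints. The KRAB zinc finger genes have multiplied by local duplication and lie in clusters. HuD (Elavl4) is a neuronal RNA-binding protein that binds U-rich sequences, mostly in 3′ UTRs, and is known to affect stability and translation of its target mRNAs.

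The cells were NSC-34, a mouse hybrid of neuroblastoma cells and motoneuron-enriched embryonic spinal cord cells that serves as a motor neuron-like line. They carried the tetracycline receptor (Trex cells), and the HuD line in addition carried a lentiviral construct for human HuD with a His-HA tag, so that the HuD cells held the transgene on top of the mouse gene. Total RNA (RNA-Seq) and polysomal RNA (POL-Seq) were sequenced from 2 HuD and 2 control libraries each, and 3′ ends from 3 HuD and 3 control libraries, after 48 h of 2 µg/ml tetracycline in HuD cells per the labels, which give no treatment for these controls. CRAC, in which RNA crosslinked to the tagged protein is purified and sequenced, had 3 HuD and 3 control libraries, both lines receiving 10 µg/ml tetracycline for 24 h.

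RNA-Seq and POL-Seq libraries held 21296012 to 36284728 counts, the fewest in control polysomal replicate 2, and 3′ end libraries 12986862 to 15751036. Elavl4 was at 78.5 and 95.1 CPM in control total RNA and at 240 and 211 CPM in HuD total RNA, so the libraries carried their labels in this respect. In the 3′ end libraries, where reads near mouse 3′ ends were counted, Elavl4 was at 65.6 ± 24.8 CPM in control and 46.2 ± 13.5 CPM in HuD libraries (SD, n = 3), with overlapping groups. Within same-numbered pairs Elavl4 was lower in the library labelled HuD in all 3, from 81.6 to 56.6, 37.0 to 30.9 and 78.1 to 51.0 CPM. Its log2 change was −0.47 ± 0.10 with a block on the replicate number (adjusted p = 0.0306, edgeR), and the adjusted p was 0.922 without the block. These counts cover mouse Elavl4 3′ ends, and the transgene, a human HuD cDNA, was not measured apart. They therefore cannot show whether HuD was induced there, and these are called the libraries labelled HuD. Of the motor neuron and neuronal markers, Tubb3, Nefl, Nefm, Map2, Isl1, Ache and Slc18a3 were detected, Chat was at 0.448 to 0.611 CPM in each RNA library, and Mnx1 had no row in the table. Of the glial markers, Gfap was under 0.636 CPM and Mbp between 4.32 and 7.12 CPM.

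Fingers were counted in the coding sequences of GENCODE vM21 (GRCm38), translated from the longest coding transcript of each of the 258 protein coding members. The remaining member, Zfp939, is annotated as a pseudogene. The median protein held 10 matches to the C2H2 pattern (C, 2 residues, C, 12 residues, H, 3 to 5 residues, H). Zfp462, a protein of 2495 residues, had the most, with 33, and 10 members had none, among them Zfp365, Zfp414, Zfp503 and Zfp703. The TGEKP linker that joins neighbouring fingers was found in 181 members. A KRAB-like pattern was found in 81, and in 117 with a wider pattern chosen after the data were seen. The name therefore marks zinc fingers and does not by itself mark a transcription factor: Zfp598, for example, is a ubiquitin ligase that acts on collided ribosomes. Chromosome 7 held 66 members (25.5%, against 7.82% of all genes at 5 CPM or more) and chromosome 17 held 35 (13.5%, against 5.05%). With gaps of at most 200 kb between members, 103 lay in 18 runs of 3 or more. The longest run, at chr7:29768552-30169727, held 13 members, among them Zfp568 and Zfp146, and the next, at chr17:32771236-33394641, held 11. Of the 81 genes with the KRAB-like pattern, 45 were on chromosomes 7 or 17.

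HuD contacts on these mRNAs came from CRAC, as windows of 7 nt that the authors called on pooled replicates. The sequences below are the 9 windows of the 6 genes on which the later results turn, as RNA from 5′ to 3′ with 10 nt on either side and the window in capitals.
Zfp706 window with the highest coverage: auaaaguaguGCUUUGAuuuuacaaca
Zfp706 middle window: uuauuauuugCCUUAUAacaaugaauu
Zfp706 distal window: uguacuuaacUGUUUUCugagcagcug
Zfp654: aguuuguuuuAGUUUUAuuauguagcc
Zfp365: ccugacuaacACUUGUAgaauuauugu
Zfp275 upstream window: acuacaauagUAUUUCGgguuccuugc
Zfp275 downstream window: accucauugcACUUUUCuuucuaacca
Zfp292: gccaggugguGGUUUGUgaaguagccc
Zfp945: cagucuuucaGCUUUGCucaaacuuua
On GRCm38, the 3 windows of Zfp706 lay at chr15:37000633-37000639, chr15:37000565-37000571 and chr15:36999388-36999394 on the minus strand. That of Zfp654 lay at chr16:64781632-64781638 (minus), that of Zfp365 at chr10:67887286-67887292 (minus), those of Zfp275 at chrX:73355600-73355606 and chrX:73357576-73357582 (plus), that of Zfp292 at chr4:34804101-34804107 (minus) and that of Zfp945 at chr17:22850031-22850037 (minus). All of them were annotated by the authors as 3′ UTR.

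In all, 14 members (5.41%) had 18 CRAC windows, while 11.9% of the genes at 5 CPM or more had a window. All 18 windows lay in 3′ UTRs. U stood at positions 3 and 4 of all 18 windows and at position 5 of 16, but the authors chose windows by their score against a U-rich weight matrix, so this describes the choice. Coverage ran from 6 to 83 reads with a median of 12.5, and the windows were covered by 380 reads with 98 deletions, the mark of a crosslinked base. Control coverage was 0 at each of them, and the authors had penalised positions with control reads. Replicates were pooled, so coverage has no replicate error. The authors' p-value was under 0.05 for 1 window, that of Zfp706 with 83 reads (authors' p = 0.0216).

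Zfp706, a small protein of 76 residues, led with 124 reads over its 3 windows, followed by Zfp654 with 72 reads and Zfp365 with 42. Zfp275 had 35 reads in 2 windows, Zfp664 had 17 and Zfp512 had 16 in 2 windows. Zfp655 had 13 reads, Zfp292 and Zfp703 had 12 each and Zfp280c had 10. The promoter factor Zfp148 had 8, Zfp422 had 7, and Zfp266 and Zfp945 had 6 each. Members with windows had a median of 56.4 CPM in control total RNA and a median 3′ UTR of 2535 nt, against 22.9 CPM and 1215.5 nt for the other 245. Their median number of C2H2 matches was 4.5, against 10. A single gene of the 81 with the KRAB-like pattern had a window, Zfp266 (1.23%), against 13 of the 177 without it (7.34%). The part of level and 3′ UTR length in this was not tested.

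Levels of the members in control total RNA ranged from 5.14 to 262 CPM with a median of 23.7, and 17 members reached 100 CPM. Per length (FPKM, CPM per kb of exon), the median was 4.79, against 9.80 for all genes at 5 CPM or more. The highest FPKM levels were those of Zfp706 (52.7), Zfp740 (43.6), Zfp146 (35.4), Zfp598 (35.0) and Zfp362 (33.2). Together the members took 0.939% to 0.970% of the counts of a library, and the lowest and the highest share were both in total RNA. These levels chose the members and are a description.

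Polysomal RNA sediments with several ribosomes, so the ratio of polysomal to total RNA is a measure of how much of an mRNA is being translated. In HuD cells the Zfp mRNAs lay on the low side of this ratio. The median log2 ratio of polysomal to total RNA was −0.06 over the 259 members and 0.03 over all 10746 genes at 5 CPM or more, and 168 members (64.9%) were below 0, against 41.8% of those genes. In same-numbered libraries the members' median was −0.04 in replicate 1 and −0.06 in replicate 2, while that of the genes at 5 CPM or more was 0.04 in each. In bulk cultures, a smaller share of cells with an mRNA and less of it per cell cannot be told apart.

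Gene by gene, no member passed an adjusted p of 0.05 in this comparison in edgeR's quasi-likelihood test, in a table where 0.047% of the 14906 genes tested were called higher and 0.49% lower. At an unadjusted p under 0.05, 35 members (13.5%) were lower in polysomal RNA and 12 (4.63%) higher. Over all genes tested these shares were 7.59% lower and 4.85% higher, and over genes at 5 CPM or more 6.31% lower and 6.24% higher. Both polysomal libraries of HuD cells were under both total libraries for 99 members (38.2%) and over them for 55 (21.2%), against 22.9% and 28% of all genes tested. Such shares were not counted over genes at 5 CPM or more. The calls rested on the libraries: DESeq2 called 5 members (1.93%), against 1.67% of all genes to which it gave an adjusted p. Leaving out control polysomal replicate 1 gave 9 members (3.47%), all lower, against 2.56% of all genes. Leaving out control polysomal replicate 2 gave 10 (3.86%), of which 9 were lower, against 2.75% of all genes. With the replicate number as a block, 13 members (5.02%) were called, 3 higher and 10 lower, against 2.79% of all genes, but with 2 libraries per group it is not shown that the number pairs them.

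**Figure D1:**
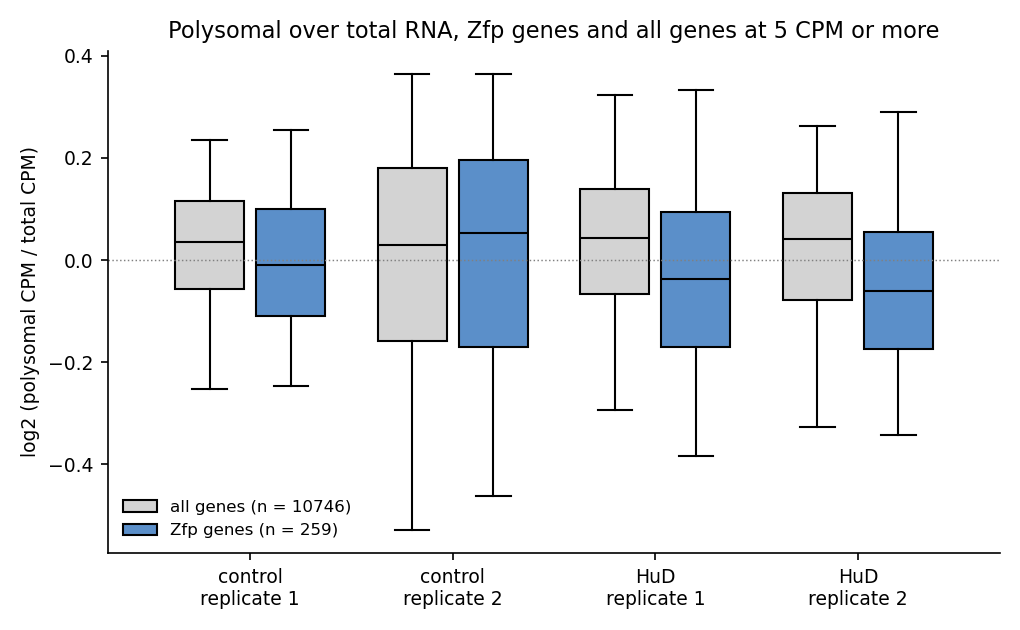
Log2 ratio of polysomal to total CPM in each same-numbered pair of libraries (x axis, cell state and replicate) for all genes at 5 CPM or more (grey, n = 10746) and for the Zfp genes (blue, n = 259). Boxes show quartiles and the median, whiskers the 5th and 95th percentile. The Zfp median lies below that of all genes in both HuD pairs and in control replicate 1, and above it in control replicate 2.

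No member passed the adjusted threshold without the block, so the genes described next are those with the smallest p, chosen after their values were seen. Zfp57, a KRAB zinc finger protein that maintains methylation at imprinted regions (chr17:37001163-37010635, plus strand), was at 45.0 and 48.9 CPM in total RNA and at 32.2 and 34.6 CPM in polysomal RNA of HuD cells. The polysomal libraries were lower without overlap, with a log2 ratio of −0.50 ± 0.09 (SE, adjusted p = 0.0606, edgeR). In control cells Zfp57 was at 40.2 and 41.6 CPM in total and 32.7 and 34.4 CPM in polysomal RNA, again without overlap. Zfp57 was called lower in HuD cells by DESeq2.

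Zfp35 was at 61.8 and 59.6 CPM in total and 47.9 and 45.6 CPM in polysomal RNA of HuD cells (log2 ratio −0.39 ± 0.08, adjusted p = 0.0752, edgeR). Zfp623 was at 59.6 and 57.2 CPM in total and 47.2 and 46.8 CPM in polysomal RNA (−0.33 ± 0.07, adjusted p = 0.112, edgeR). Zfp280b was at 104 and 101 CPM in total and 77.3 and 83.2 CPM in polysomal RNA (−0.37 ± 0.08, adjusted p = 0.112, edgeR). The polysomal libraries of these 3 genes were below the total libraries without overlap. The lowest ratio was that of Zfp692, at 43.2 and 58.5 CPM in total and 26.8 and 35.7 CPM in polysomal RNA (−0.72 ± 0.17, adjusted p = 0.134, edgeR). Its replicates differed from each other within either fraction, and both polysomal values were below both total values.

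On the high side, Zfp942 (chr17:21926960-21962464, minus strand), a KRAB zinc finger gene in a run of 9 on chromosome 17, was at 12.4 and 15.8 CPM in total and 23.3 and 22.5 CPM in polysomal RNA of HuD cells (log2 ratio 0.69 ± 0.17, adjusted p = 0.141, edgeR). In control cells it was at 11.5 and 15.5 CPM in total and 17.8 and 18.0 CPM in polysomal RNA. Zfp945, on the same chromosome (chr17:22846697-22867134, minus strand), was at 20.7 and 20.8 CPM in total and 27.1 CPM in each polysomal library (0.37 ± 0.10, adjusted p = 0.169, edgeR). Both genes were higher in polysomal RNA without overlap in HuD and in control cells. Of the 50-mers of its longest transcript, Zfp942 shares 8.99% with other genes, mostly Zfp944, and Zfp945 shares 0.913%, so counts of the former are the less certain. Over the 257 members with a protein coding transcript under the same symbol in GENCODE vM21, 29 shared more than 10% of their 50-mers with another gene, Zfp955a (51.8%) and Zfp955b (31.7%) with each other.

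In control cells, whose total RNA chose the members, the ratio is given with no test. The median log2 ratio was 0.0066 over the members and 0.03 over all genes at 5 CPM or more, and 127 of 259 members were below 0. The pairs disagreed: the members' median was −0.0089 in replicate 1 and 0.05 in replicate 2. Members lower in polysomal RNA in both pairs numbered 81 in control and 134 in HuD cells, and those higher in both numbered 89 and 72. The same was not counted over all genes, so these numbers do not show a change particular to the members. Without control polysomal replicate 2 the control median was −0.03, and without replicate 1 it was 0.05.

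The ratio moved with base composition, and did so most in control replicate 2. Across 258 members, Spearman's rho between GC content of the transcript and the log2 ratio was −0.40 in control replicate 1, −0.73 in control replicate 2, −0.38 in HuD replicate 1 and −0.22 in HuD replicate 2. Over genes at 5 CPM or more it was −0.43, −0.65, −0.37 and −0.32. These are correlations across genes, which share libraries and base composition and are not replicates. The median GC content was 46.3% for the members and 50.7% for the genes at 5 CPM or more, and 42.0% for members with the KRAB-like pattern against 48.6% for those without. The part of base composition in the members' ratios was not tested.

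**Figure D2:**
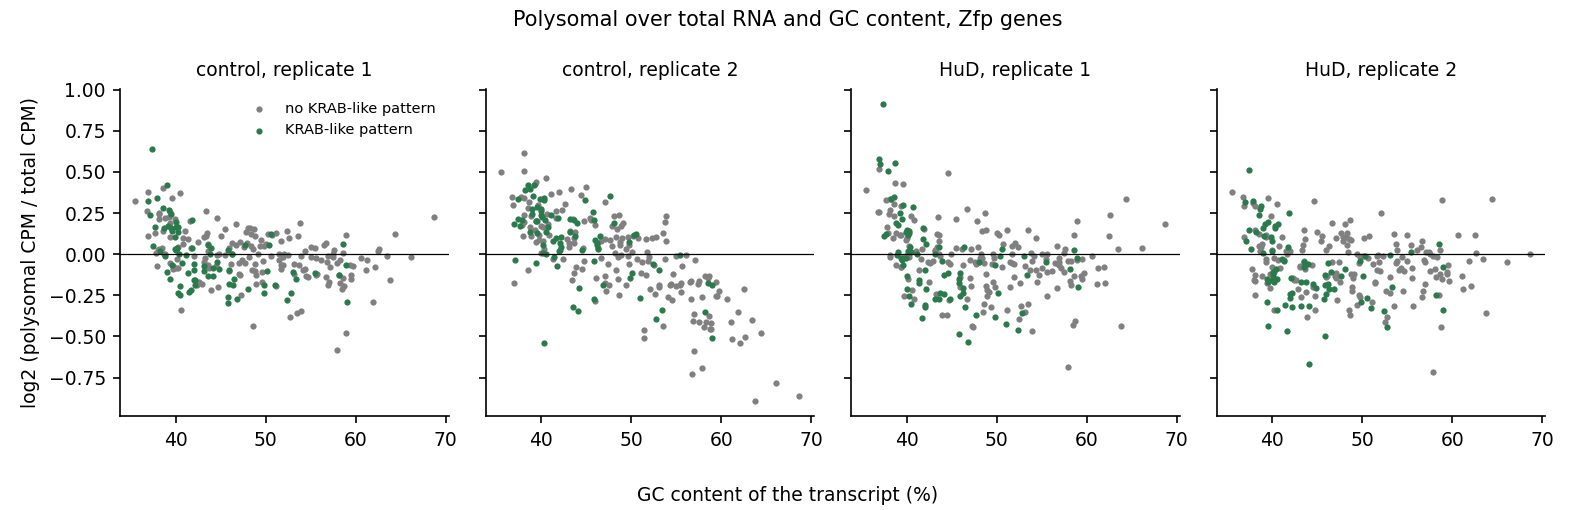
GC content of the transcript (x axis, %) and log2 ratio of polysomal to total CPM (y axis) of the Zfp genes in the 4 same-numbered pairs of libraries, with genes that have the KRAB-like pattern in green and the others in grey. The cloud slopes downward in every panel, and the slope is steepest in control replicate 2 (Spearman's rho −0.73).

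By number of fingers, members with 0 to 4 matches had a median log2 ratio of 0.0066 in HuD cells (51 genes, 25 below 0). Those with 5 to 9 matches had −0.09 (74 genes, 53 below 0), and those with 10 or more had −0.08 (133 genes, 89 below 0). Members with the KRAB-like pattern had −0.09 (57 of 81 below 0) and those without it −0.06 (110 of 177 below 0). In control cells the KRAB-like members had medians of −0.05 in replicate 1 and 0.11 in replicate 2, so their order against the others turned between replicates. The 14 members with CRAC windows had a median of 0.10 in HuD cells with 3 below 0, and 0.10 in control cells with 4 below 0. Zfp292 and Zfp945 had the highest control ratios among them.

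**Figure D3:**
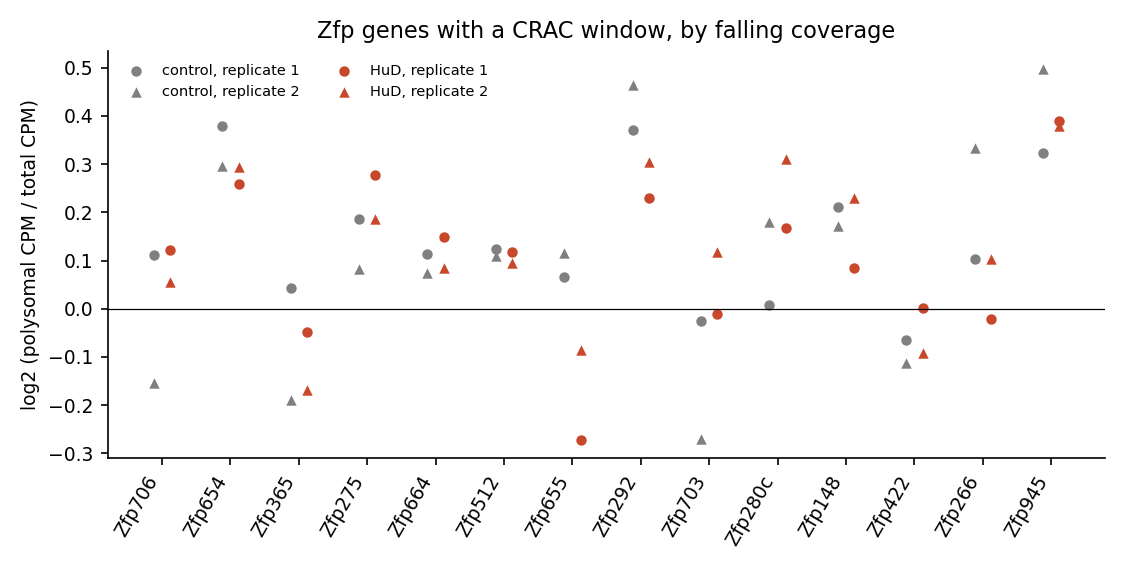
Log2 ratio of polysomal to total CPM (y axis) of the 14 Zfp genes with a CRAC window, ordered by summed HuD coverage (x axis), in control (grey) and HuD cells (red), circles for replicate 1 and triangles for replicate 2. The 4 points of Zfp654, Zfp275, Zfp664, Zfp512, Zfp292, Zfp280c, Zfp148 and Zfp945 all lie above 0.

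Among those with CRAC windows, Zfp292, a large zinc finger protein with 2698 residues, was at 67.6 and 65.8 CPM in total and 79.3 and 81.2 CPM in polysomal RNA of HuD cells (log2 ratio 0.25 ± 0.08, adjusted p = 0.218, edgeR). In control cells it was at 61.2 and 57.1 CPM in total and 79.2 and 78.8 CPM in polysomal RNA. Zfp654 was at 16.3 and 15.5 CPM in total and 19.5 and 19.0 CPM in polysomal RNA of HuD cells (0.26 ± 0.11, adjusted p = 0.366, edgeR). Zfp275 was at 125 and 129 CPM in total and 151 and 147 CPM in polysomal RNA (0.22 ± 0.10, adjusted p = 0.404, edgeR). For these 3 genes both polysomal libraries were above both total libraries in HuD cells, and in control cells this held for Zfp292 and Zfp654 but not for Zfp275. Zfp706, with the most coverage, was at 259 and 271 CPM in total and 282 and 281 CPM in polysomal RNA of HuD cells, a log2 ratio of 0.07 ± 0.10.

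HuD against control in total RNA asks whether mRNA levels moved. This comparison and the next but one share the control total libraries that chose the members, so their tests are not independent of that choice. The members' median log2 change was 0.03, against −0.02 for genes at 5 CPM or more, with 94 of 259 members (36.3%) below 0, against 56.7% of those genes. It was 0.0051 without HuD total replicate 2 and 0.05 without HuD total replicate 1. No member passed an adjusted p of 0.05 in edgeR or DESeq2, nor did any gene in edgeR (0%). Elavl4 itself, with a log2 change of 1.35 ± 0.15, was not called (adjusted p = 0.0866, edgeR). A lack of calls here therefore does not show a lack of change. At an unadjusted p under 0.05, 5 members (1.93%) were higher and 0 lower, against 1.78% and 0.865% of all genes tested. Over genes at 5 CPM or more these shares were 1.04% and 0.996%.

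Zfp446 was at 12.9 and 13.0 CPM in control and 18.3 and 16.4 CPM in HuD total RNA (log2 change 0.40 ± 0.11, adjusted p = 1.00, edgeR). Zfp945 was at 16.6 and 16.2 CPM in control and 20.7 and 20.8 CPM in HuD total RNA (0.31 ± 0.10), and Zfp738 at 6.59 and 7.26 CPM against 8.92 and 8.94 CPM (0.34 ± 0.13). The groups of these 3 genes, which were chosen by p, did not overlap. Zfp738 shares 9.12% of its 50-mers with other genes, mostly Zfp729a, so its counts are less certain. Both HuD total libraries were above both control ones for 89 members (34.4%) and below them for 17 (6.56%). Over all genes tested these shares were 19.3% and 12.6%, and over genes at 5 CPM or more they were not counted. The smallest p among lower members was that of Zfp385a, which binds RNA in the control of p53 responses, at 48.6 and 49.8 CPM in control and 44.9 and 43.3 CPM in HuD cells (−0.18 ± 0.08). Zfp324 (−0.16 ± 0.09) and Zfp423 (−0.15 ± 0.09), a factor of neural progenitors, followed.

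In polysomal RNA the members' median log2 change with HuD was −0.03, against −0.01 for genes at 5 CPM or more, and it was 0.0031 with library totals in place of TMM. In edgeR no member and no gene (0%) passed the adjusted threshold, and in DESeq2 no member did. Elavl4 was not called here either (log2 change 1.17 ± 0.15, adjusted p = 0.282, edgeR). At an unadjusted p under 0.05, 6 members were higher and 5 lower (2.32% and 1.93%), against 2.29% and 1.89% of all genes tested. Over genes at 5 CPM or more these shares were 2.08% and 2.10%. Zfp358 was at 52.1 and 45.8 CPM in control and 58.4 and 59.6 CPM in HuD polysomal RNA (0.23 ± 0.08). Zfp945 was at 20.8 and 22.9 CPM in control and 27.1 CPM in each HuD library (0.28 ± 0.10). Zfp938 was at 27.7 and 21.7 CPM in control and 33.9 and 32.5 CPM in HuD libraries (0.39 ± 0.14). All 3, chosen by p, were higher without overlap, Zfp945 alone with a CRAC window, of 6 reads. Both HuD polysomal libraries were above both control ones for 37 members (14.3%) and below them for 41 (15.8%). Over all genes tested these shares were 18.8% and 10.7%, and over genes at 5 CPM or more they were not counted. On the lower side were Zfp35 (−0.22 ± 0.08), Zfp111 (−0.45 ± 0.16), which was at 4.83 and 5.12 CPM in control and 3.42 and 4.05 CPM in HuD cells, and Zfp317 (−0.33 ± 0.13). The medians moved with control polysomal replicates: −0.06 without replicate 1 and −0.0086 without replicate 2. Without replicate 1 of these, 5 members (1.93%) were called, all of them higher, against 2.49% of all genes, and without replicate 2 none.

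**Figure D4:**
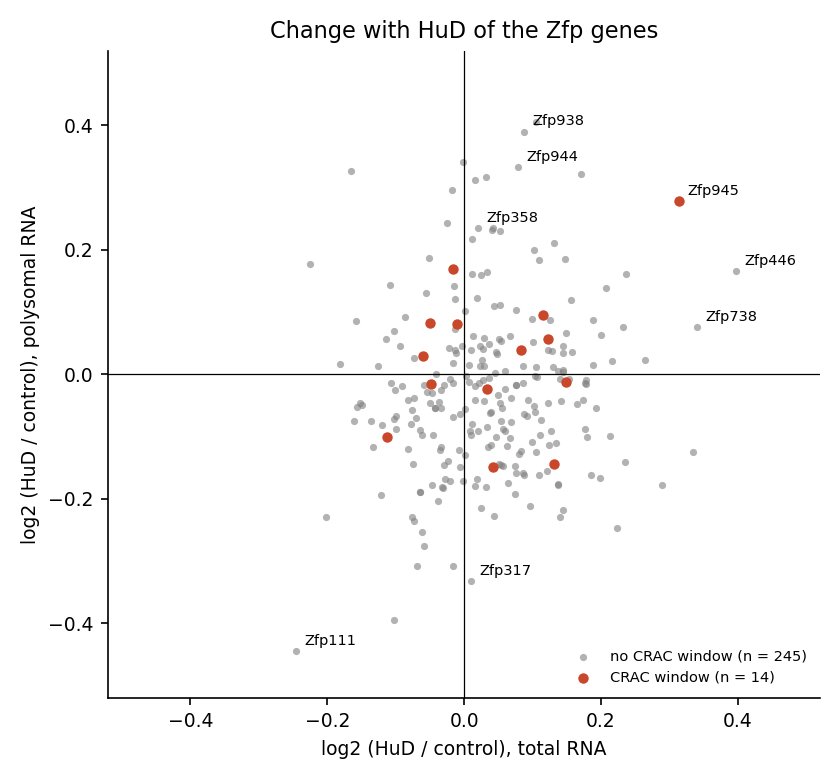
Log2 change with HuD in total RNA (x axis) and in polysomal RNA (y axis) of the 259 Zfp genes, from the edgeR fit, with the 14 genes that have a CRAC window in red. Of the 259 points, 211 lie within 0.2 of 0 on both axes, and Zfp945 is the red point farthest to the upper right.

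The change in translational efficiency (TE, the HuD effect on polysomal RNA less that on total RNA) was below 0 in 170 of 259 members (65.6%), against 50.3% of genes at 5 CPM or more. Its median was −0.07 over the members (SD between the 2 replicate numbers 0.055) and −0.0010 over those genes. It was −0.12 without control polysomal replicate 1, where 1 member was called, higher, against 0.315% of all genes, and −0.03 without replicate 2. In edgeR no member and no gene (0%) passed the adjusted threshold, and in DESeq2 no member did. The control total libraries that chose the members enter this test too. At an unadjusted p under 0.05, 0.409% of genes tested were higher and 0.57% lower. Over genes at 5 CPM or more these shares were 0.316% and 0.223%. Among members, 1 was higher and 0 lower at this level. That member was Zfp428, at 24.5 and 18.6 CPM in control polysomal and 27.3 and 28.2 CPM in HuD polysomal RNA, with total RNA at 22.5 and 26.0 CPM in control and 21.7 and 22.3 CPM in HuD cells (0.49 ± 0.19). It was followed by Zfp503 (0.40 ± 0.20), a developmental repressor, and Zfp358 (0.21 ± 0.11), and on the lower side by Zfp35 (−0.24 ± 0.11), Zfp119a (−0.46 ± 0.21) and Zfp563 (−0.47 ± 0.22). Zfp119a shares 16.6% of its 50-mers with other genes and is therefore uncertain. Members with the KRAB-like pattern had a median of −0.12 (61 of 81 below 0) and those without it −0.04 (108 of 177 below 0). The replicates disagreed here. The KRAB-like members' median polysomal to total ratio was −0.05 in control and −0.04 in HuD cells in replicate 1. In replicate 2 it was 0.11 and −0.12. For those without the pattern it was −0.0064 and −0.03 in replicate 1, and −0.0065 and −0.05 in replicate 2.

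The 3′ end libraries, independent of the choice of members, counted 169 of the 259 members, 44 of them with 2 or more ends. Same-numbered libraries deviated together, so the replicate number was taken to pair them. The labels give the number alone, and deviations of differently numbered libraries were not compared, so calls with the block rest on this assumption. Without the block on replicate number, no member passed an adjusted p of 0.05 (0.052% of 9621 genes did), and at an unadjusted p 4 members were higher and 5 lower, against 2.87% and 3% of all genes. With the block, 3 of 169 members (1.78%) passed, in a table where 2.26% of genes did. In the same fit mouse Elavl4 3′ ends were lower in the libraries labelled HuD. This cannot show whether the transgene was induced, so directions here are those of the labels. The median log2 change of the members was 0.05, against −0.0039 for genes at 5 CPM or more. It was 0.12 without HuD replicate 2.

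Zfp365, a member of the neural list with a CRAC window of 42 reads, was at 90.4, 78.6 and 81.1 CPM in the control libraries and at 67.1, 50.1 and 57.7 CPM in those labelled HuD. The groups did not overlap, and its 3′ end counts fell in each of the 3 pairs, with a log2 change of −0.52 ± 0.09 with the block (adjusted p = 0.0178, edgeR) and an adjusted p of 0.453 without it. Total RNA gave no such difference: Zfp365 was at 120 and 102 CPM in control and 120 and 111 CPM in HuD cells (log2 change 0.03 ± 0.14). Zfp518b was at 17.4, 16.1 and 12.6 CPM in control libraries and 26.4, 21.0 and 25.6 CPM in those labelled HuD, without overlap (0.67 ± 0.14 with the block, adjusted p = 0.0319, edgeR). Zfp575 was at 131, 113 and 139 CPM in control libraries and 188, 142 and 184 CPM in those labelled HuD, without overlap (0.42 ± 0.08 with the block, adjusted p = 0.0254, edgeR). With 1 of the 3 pairs left out, the blocked adjusted p of Zfp365 was 0.138 without pair 1, 0.0609 without pair 2 and 0.00098 without pair 3. That of Zfp575 was 0.211, 0.0364 and 0.0144, and that of Zfp518b 0.214, 0.0251 and 0.102, so each of the 3 calls was lost in at least 1 of these fits. These fits called 0 members without pair 1, 3 without pair 2 and 3 without pair 3, where 2.11% of all genes were called without pair 2 and 2.35% without pair 3. Neither Zfp518b nor Zfp575 had a CRAC window. These 3 genes were chosen by p, and the share of all genes without overlap was not counted in these libraries. Without the block, Zfp384 (0.83 ± 0.34) followed among higher members, and Zfp131 (−0.47 ± 0.17) and Zfp236 (−0.95 ± 0.39) among lower ones. Among these, Zfp384 and Zfp236 were under 4 CPM in every library. Zfp384 shares 15.5% of its 50-mers with other genes, mostly Gm11405, and is therefore uncertain.

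**Figure D5:**
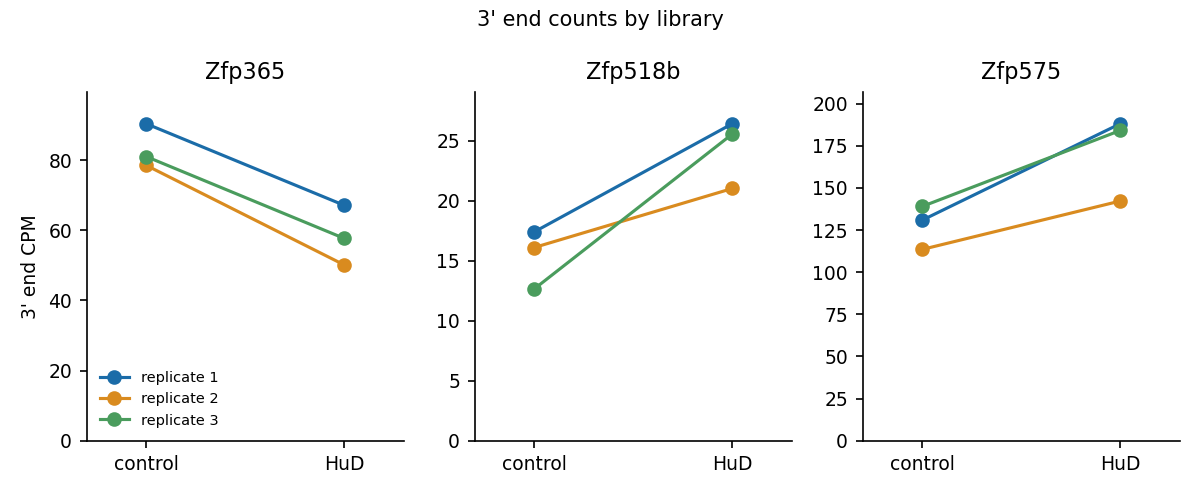
3′ end counts (y axis, CPM) of Zfp365, Zfp518b and Zfp575 in control and HuD-labelled libraries (x axis), with a line for each same-numbered pair. All 3 lines fall for Zfp365 and rise for Zfp518b and Zfp575.

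By role, each list is described by its counts, in HuD cells for polysomal against total RNA at an unadjusted p under 0.05. Over all genes tested, 7.59% were lower and 4.85% higher at this level, and over genes at 5 CPM or more 6.31% and 6.24%. Therefore 0 or 1 gene per direction does not set a list apart. Of 10 members linked to RNA and ribosomes, 1 was lower and 0 higher, with a median of 0.04. The lower one was Zfp830, which works in splicing, at 35.1 and 36.5 CPM in total and 28.5 and 28.3 CPM in polysomal RNA (−0.35 ± 0.09). The ribosome collision ligase Zfp598 was at 137 and 141 CPM in total and 124 and 131 CPM in polysomal RNA (−0.14 ± 0.08), and the mitotic factor Zfp207 (BuGZ) had a log2 ratio of 0.13 ± 0.08. Of 11 members linked to retroelements, imprints and heterochromatin, 1 was lower (Zfp57) and 1 higher (Zfp518a, 0.29 ± 0.12), with a median of −0.02. Zfp809, a KRAB protein that targets proviral DNA, had −0.24 ± 0.17, and Zfp42 (Rex1), a pluripotency marker, was not a member.

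Of 9 neural and developmental members, 0 were lower and 1 was higher, Zfp292, with a median of 0.04. Of 7 promoter activators, Zfp367 was higher, at 26.5 and 32.7 CPM in total and 37.4 and 40.9 CPM in polysomal RNA (0.39 ± 0.13), and Zfp263 lower (−0.22 ± 0.09), with a median of −0.10. With HuD, none of the 4 lists had a member at an unadjusted p under 0.05 in total RNA, polysomal RNA or TE. In the 3′ end libraries, which counted 9 members of the RNA list and 7 of each other list, Zfp384 among the promoter activators was higher at an unadjusted p under 0.05 without the block. Over all genes in these libraries, 2.87% were higher and 3% lower at this level. Lower at this level were Zfp131 and Zfp143 (−0.35 ± 0.15) among the promoter activators, Zfp219 (−0.27 ± 0.12) in the list linked to retroelements, imprints and heterochromatin, and Zfp365 in the neural list. Of these, Zfp365 alone passed the adjusted threshold with the block. In polysomal against total RNA of HuD cells, no list member passed the adjusted threshold in edgeR with all libraries and without the block. With the block, Zfp57, Zfp830 and Zfp367 did (adjusted p = 0.0080, 0.0467 and 0.0394, edgeR), in a fit that called 2.79% of all genes. With 2 libraries per group, it is not shown that the replicate number pairs them.

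The KRAB corepressor genes, which are no members, were described for the same contrasts. All 17 were tested, Trim28, Setdb1 and the HP1 genes among them. At an unadjusted p under 0.05, 0 differed between polysomal and total RNA of HuD cells (median 0.06), against 7.59% lower and 4.85% higher over all genes tested. With HuD, 1 of 17 was lower in polysomal RNA, Hdac1 (−0.32 ± 0.12, adjusted p = 0.969, edgeR), against 1.89% of all genes tested. In total RNA 0 reached this level. The 67 genes of other C2H2 families at 5 CPM or more (Zbtb, Zkscan, Zscan, Klf and Sp) had a median log2 ratio of −0.09 in HuD cells, with 45 below 0. At an unadjusted p under 0.05, 9 of the 67 were lower (13.4%) and 0 higher, against 7.59% and 4.85% of all genes tested. Over all genes at 5 CPM or more these shares were 6.31% and 6.24%. The median change of these 67 genes with HuD was 0.05 in total RNA and −0.09 in TE, beside 0.03 and −0.07 for the Zfp genes.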

How the data were processed

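The deposited gene table of total and polysomal RNA holds raw counts (stranded libraries, STAR 2.5.3a, GRCm38.p4, Gencode M6, per the submitters' processing notes and the study's methods). The 3′ end table deposited by the authors holds counts of reads near known polyadenylation sites, one line per transcript, which were summed per gene over unique ends. For CRAC, the authors deposited pooled coverage (signal, in reads), counts of deletions, a p-value and a score against their weight matrix. CRAC positions were shifted by 1 nt (plus strand) or 2 nt (minus strand) to match the listed sequence.

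Counts were tested with edgeR 4.0.16 in R 4.3.3 (TMM, filterByExpr, quasi-likelihood test, Benjamini-Hochberg adjustment over all genes, threshold 0.05), with DESeq2 1.42.0 as an alternative. The fits were tested on simulated data. RNA-Seq and POL-Seq had 2 biological replicates per group and 3′ ends 3. CPM used the library totals of the tables, and FPKM the exon length in GENCODE vM21. Same-numbered 3′ end libraries correlated in their deviations from the group means at 0.393, 0.648 and 0.508, so a paired fit with a replicate block is given beside those results.

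Members and lists were chosen with earlier results of these data known. The genes named are the 5 members with the highest FPKM, the 3 with the smallest p per direction and comparison, those with CRAC windows, those next to the CPM limit and examples from the role lists. For polysomal against total RNA the rule asked for adjusted p under 0.05, which no member met, so the smallest p was used. Fingers were counted in translated GENCODE vM21 coding sequences in place of RefSeq proteins. The design fixed a test of the control ratio, which is not used here because control levels chose the members. The tests of HuD in total RNA and TE share these libraries and are not independent of that choice. Alternatives chosen after seeing the data were merged 3′ ends within 20 nt, the blocked 3′ end fit without each pair, the wider KRAB pattern and shared 50-mers.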

Additional observations from a re-analysis of the deposited data

How the results depend on the processing

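With 2 libraries per group, calls depended on which entered the fit, and no result here rests on a call in RNA-Seq or POL-Seq. DESeq2 called 5 members in polysomal against total RNA of HuD cells and gave unadjusted p under 0.05 for 31 there, 7 in polysomal RNA, 2 in total RNA and 5 in 3′ ends. The replicate block, for which the 2 replicate numbers of RNA-Seq and POL-Seq give no check of pairing beyond positive correlations of deviations (0.173 to 0.358), called 13 members in polysomal against total RNA of HuD cells (3 higher, 10 lower; 5.02%), where it called 2.79% of all genes, and 3 in 3′ ends, against 2.26% of all genes. At an unadjusted p under 0.05 it gave 27 of 259 members in polysomal RNA, 11 in total RNA, 15 in TE and 23 of 169 in 3′ ends. Over all genes it gave 643 higher and 743 lower of 14906 in polysomal RNA, and 533 and 385 in total RNA. In TE these were 163 and 199, and in 3′ ends 831 and 967 of 9621. For DESeq2 and with a library left out, shares of all genes at an unadjusted p were not computed, so member counts are not given. Library totals moved the median in polysomal RNA to 0.0031, and a minimum of 10 CPM left 3 members in total RNA. Windows with the authors' p under 0.05 left 1 member.

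Leaving out each library gave 0 to 10 called and 21 to 64 members at an unadjusted p in polysomal against total RNA of HuD cells. In polysomal RNA it gave 0 to 5 called, 1 to 57 at an unadjusted p and medians of −0.059 to −0.0086. In total RNA it gave 3 to 10 at an unadjusted p, in TE 0 to 1 called (0.315% of all genes where it was 1) and 0 to 53 at an unadjusted p, the highest without control polysomal replicate 1. In 3′ ends it gave 3 to 13 and medians of 0.020 to 0.12, and with the block, leaving out pair 1, 2 or 3, it gave 0, 3 or 3 called and 13, 18 or 19 at an unadjusted p. Merging 3′ ends within 20 nt changed no call. Of 372 single-gene values under alternatives, 0 changed sign, and 23 passed the adjusted threshold only there. Many of these genes were chosen by their p in the same libraries, so a kept sign is no independent support. Of headline values under alternatives, 46 moved and 201 stayed the same.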
